A study of Mus musculus with 35 samples.

Results

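The 10 genes described here carry glucose into the cell and through glycolysis to lactate: the glucose transporter Slc2a1, the hexokinases Hk1 and Hk2, the glucose phosphate isomerase Gpi1, the phosphofructokinases Pfkl and Pfkp, the aldolase Aldoa, the phosphoglycerate kinase Pgk1, the muscle-type pyruvate kinase Pkm2 (now named Pkm) and the lactate dehydrogenase Ldha. Every array probe that carries 1 of these 10 gene names was taken, which gave 22 of the 41174 gene probes of the array, for 10 of its 27962 gene names. Of the 22 probes, 21 passed the filter for low signal among the iPS clones and ES cells, and the probe left out belonged to Hk1 and was well above background on 1 of the 35 arrays. Each gene is described by its brightest probe, and all 10 of these probes were well above background on all 35 arrays, with no saturated spot.

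Glycolysis splits glucose into pyruvate and yields ATP without oxygen, and lactate dehydrogenase regenerates the NAD+ that the pathway consumes. Pluripotent stem cells are known for a high glycolytic rate, and the change from the oxidative metabolism of fibroblasts to glycolysis is a known part of reprogramming. Several of these enzymes are textbook target genes of the transcription factors c-Myc and HIF-1, which is why clones made with and without c-Myc are of interest for this pathway.

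The study made induced pluripotent stem (iPS) cells from 3 kinds of mesenchymal cells of 6-week-old mice that carry a Nanog-GFP reporter with puromycin resistance. PαS cells are bone marrow cells sorted as CD45-, Ter119-, PDGFRα+ and Sca-1+, OP cells are PDGFRα- and Sca-1- cells of the same marrow, also sorted as CD45- and Ter119-, and TTF are tail tip fibroblasts. The cells were grown for 2 weeks and transduced with retroviruses for Oct3/4, Sox2, Klf4 and c-Myc (4 factors, 4F) or the same set without c-Myc (3 factors, 3F), together with DsRed, and puromycin was added 3 weeks after infection to 4F cells and 4 weeks after infection to 3F cells. GFP+/DsRed- clones were picked and kept on mitomycin-C-treated SNL feeder cells with LIF. The groups are 4F-PαS-iPS, 3F-PαS-iPS, 4F-OP-iPS, 3F-OP-iPS, 4F-TTF-iPS and 3F-TTF-iPS, with 5 clones and 1 array per clone in each, and beside them stand 1 array each of the mouse ES cell lines EB-3 and RF8 and 1 array each of PαS, OP and TTF cells before transduction. The 5 clones of a group come from separate colonies, and the labels do not say that they come from separate animals.

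The arrays lay on 10 slides, and 3F and 4F clones of 1 source never shared a slide. The 4F-PαS and 4F-OP clones filled 3 slides that held no other group, so that within PαS and within OP clones the factor set and the slide cannot be told apart. In TTF clones other groups linked the slides, and the factor comparison could be fitted with the slide as a fixed block there alone. All 30 clones were scanned in 1 session, EB-3 cells and the 3 source cells together on 1 slide in another session and RF8 cells in a session of their own. Differences of clones from ES cells or from source cells can therefore not be told apart from the session. In 3 clones, 4F-TTF-iPS #1 and the OP-derived 4F clones #1 and #3, the probes of the pluripotency genes Sox2 and Nanog were not well above background. The level of 10 ES cell markers, given as log2 of their summed signals, was 3.56 in the first of these, 3.58 and 3.53 in the other 2 and 4.09 in 4F-OP-iPS #2, against a median of 8.56 over the 3F clones. The same sum over 17 fibroblast markers ran from 6.21 to 8.61 in 4F clones and from 6.63 to 8.48 in 3F clones, was 1.20 in EB-3 cells and 7.27 in RF8 cells, and ran from 9.49 to 10.46 in the source cells. On the source arrays 6 of the 10 ES cell markers, Pou5f1, Nanog, Sox2, Zfp42, Esrrb and Eras, were never well above background. SNL feeder cells and fibroblasts share such markers, and the part of feeder RNA in any result was not tested. In such bulk samples, fewer cells of a kind and less RNA per cell cannot be told apart. All levels are log2 of the processed signal minus the 75th percentile of its array, so that 0 is the level of that percentile, and a level of 1 gene is not set against that of another.

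In the plot of levels by array, most of the 10 genes sat lower in 3F clones than in 4F clones of the same source, while the source cells stood apart for Slc2a1 and Hk2 and the ES cells for Hk1.

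**Figure D1:**
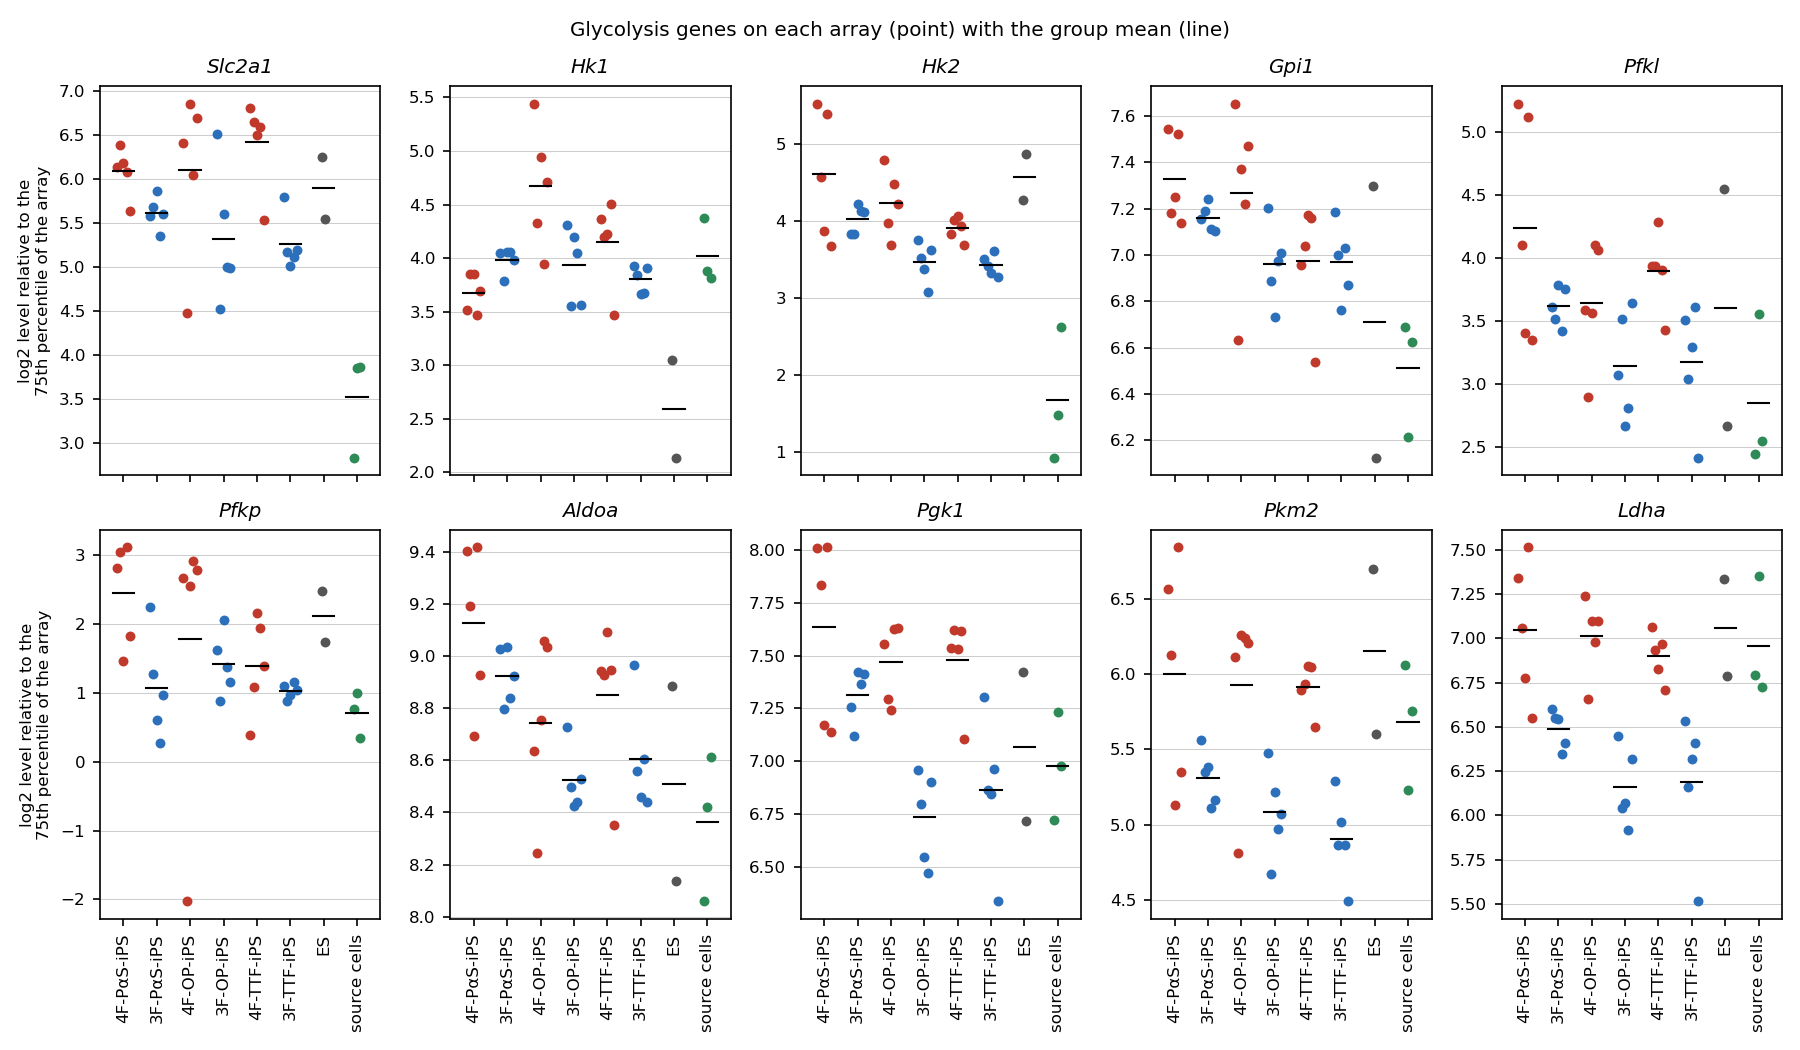
Level of each of the 10 glycolysis genes on every array (y axis, log2 of the processed signal relative to the 75th percentile of the array; x axis, the 6 clone groups, ES cells and source cells). Each point is 1 array, red for 4F clones, blue for 3F clones, grey for ES cells and green for source cells, and black lines are group means. For Ldha, 14 of the 15 3F clones lie below the lowest 4F clone, and for Slc2a1 and Hk2 the 3 source arrays lie below all 30 clones.

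The first question was whether iPS clones made without c-Myc differed from clones made with it, averaged over the 3 sources. Of the 10 genes, 6 were lower in 3F clones, in the limma fit over all probes with Benjamini-Hochberg adjusted p under 0.05, and none was higher. Over all probes, 21.1% passed this test and 9.91% were lower in 3F clones. The genes that fell were the last enzyme of the pathway Ldha, the ATP-forming enzymes Pgk1 and Pkm2, and, upstream, Slc2a1, Hk2 and Pfkl. All 10 genes had a negative difference, with a median of -0.61 on the log2 scale, while the median over all probes was 0.03 and 46.9% of all probes had a negative difference. The factor comparison cannot be told apart from the slide in PαS and OP clones, nor from the time of puromycin selection in any clones. With the slide as a random block 3 of the 6 genes, Ldha, Pgk1 and Pkm2, passed the test, which does not separate factor set and slide in those clones.

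Ldha reduces pyruvate to lactate, and its brightest probe lies at chr7:43031720-43031779 on the plus strand of mm7, the build of the array files. Its level in 4F clones was 7.34, 7.06, 6.77, 7.51 and 6.55 from PαS cells, 7.24, 6.66, 7.10, 6.98 and 7.10 from OP cells and 7.06, 6.94, 6.83, 6.97 and 6.71 from TTF, for clones #1 to #5. In 3F clones it was 6.60, 6.55, 6.55, 6.34 and 6.41 from PαS cells, 6.45, 6.04, 6.07, 5.92 and 6.32 from OP cells and 6.53, 6.16, 6.32, 6.41 and 5.51 from TTF. The only overlap came from PαS clones, 4F-PαS-iPS #5 and 3F-PαS-iPS #1, and 14 of 15 3F clones were below the lowest 4F clone. The mean level was 6.28 in 3F and 6.99 in 4F clones, a difference of -0.71 (SE 0.105, 1.64-fold lower, limma adjusted p = 6.87e-05). A second Ldha probe had a difference of -1.01 (adjusted p = 1.73e-05).

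Pkm2 makes pyruvate and ATP from phosphoenolpyruvate (probe at chr9:59706027-59706086, plus strand, mm7). The array probes of this gene name may read the M1 and M2 isoforms alike, and isoforms were not separated here. Its level ran from 4.81 through a median of 6.06 to 6.84 in the 15 4F clones and from 4.49 through 5.11 to 5.56 in the 15 3F clones. All 15 3F clones were below the 4F median, and 12 of 15 4F clones were above the highest 3F clone. The difference was -0.85 (SE 0.166, 1.80-fold lower, limma adjusted p = 0.000881), and -1.02 (adjusted p = 0.000212) with the second probe.

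Pgk1 forms ATP from bisphosphoglycerate (probe at chrX:101530787-101530846, plus strand, mm7). Its level ran from 7.10 through 7.56 to 8.01 in 4F clones and from 6.34 through 6.96 to 7.42 in 3F clones. All 15 3F clones were below the 4F median, and 10 of 15 4F clones were above the highest 3F clone. The difference was -0.56 (SE 0.108, 1.47-fold lower, limma adjusted p = 0.000866), and the second probe, which overlaps the first, gave -0.62 (adjusted p = 0.000419).

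At the entry of the pathway, Slc2a1 imports glucose (probe at chr4:118513698-118513757, plus strand, mm7) and Hk2 phosphorylates it (probe at chr6:82750613-82750672, minus strand, mm7). The Slc2a1 level ran from 4.47 through 6.39 to 6.85 in 4F clones and from 4.51 through 5.35 to 6.51 in 3F clones, so that the groups overlapped over most of their range, with 14 of 15 3F clones below the 4F median. The Slc2a1 difference was -0.80 (SE 0.203, 1.74-fold lower, limma adjusted p = 0.00618). The Hk2 level ran from 3.67 through 4.02 to 5.52 in 4F clones and from 3.07 through 3.61 to 4.21 in 3F clones, with a difference of -0.61 (SE 0.151, 1.52-fold lower, limma adjusted p = 0.00544). Pfkl, the liver-type subunit of the enzyme that commits sugar to glycolysis, ran from 2.90 through 3.94 to 5.23 in 4F clones and from 2.42 through 3.51 to 3.79 in 3F clones. Its difference of -0.62 (SE 0.202, 1.53-fold lower) had a limma adjusted p of 0.0301, and all 15 3F clones were below the 4F median. With the slide as a random block, these 3 genes no longer passed, with adjusted p = 0.198 for Slc2a1, 0.0645 for Hk2 and 0.180 for Pfkl, while their differences were -0.66, -0.64 and -0.61. Pfkl was also lost without the 3 clones that lacked Sox2 and Nanog signal (adjusted p = 0.0703), and without any 1 of 4F-PαS-iPS #1, 4F-PαS-iPS #4 or 3F-TTF-iPS #5.

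The other 4 genes did not pass the test over the 3 sources. The difference was -0.70 (SE 0.357, limma adjusted p = 0.164) for the platelet-type phosphofructokinase Pfkp, -0.26 (SE 0.130, adjusted p = 0.156) for Hk1, -0.22 (SE 0.101, adjusted p = 0.113) for Aldoa and -0.16 (SE 0.105, adjusted p = 0.291) for Gpi1. Pfkp was the gene with the widest spread among clones, from -2.03 in 4F-OP-iPS #2 to 3.11 in 4F-PαS-iPS #4, and its other probes had differences of 0.49 and -0.21, so that the probes of this gene disagreed in sign. Without 4F-OP-iPS #2, Pfkp and Aldoa passed as well and 8 of 10 genes were called, and Aldoa also passed without 4F-TTF-iPS #5.

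**Figure D2:**
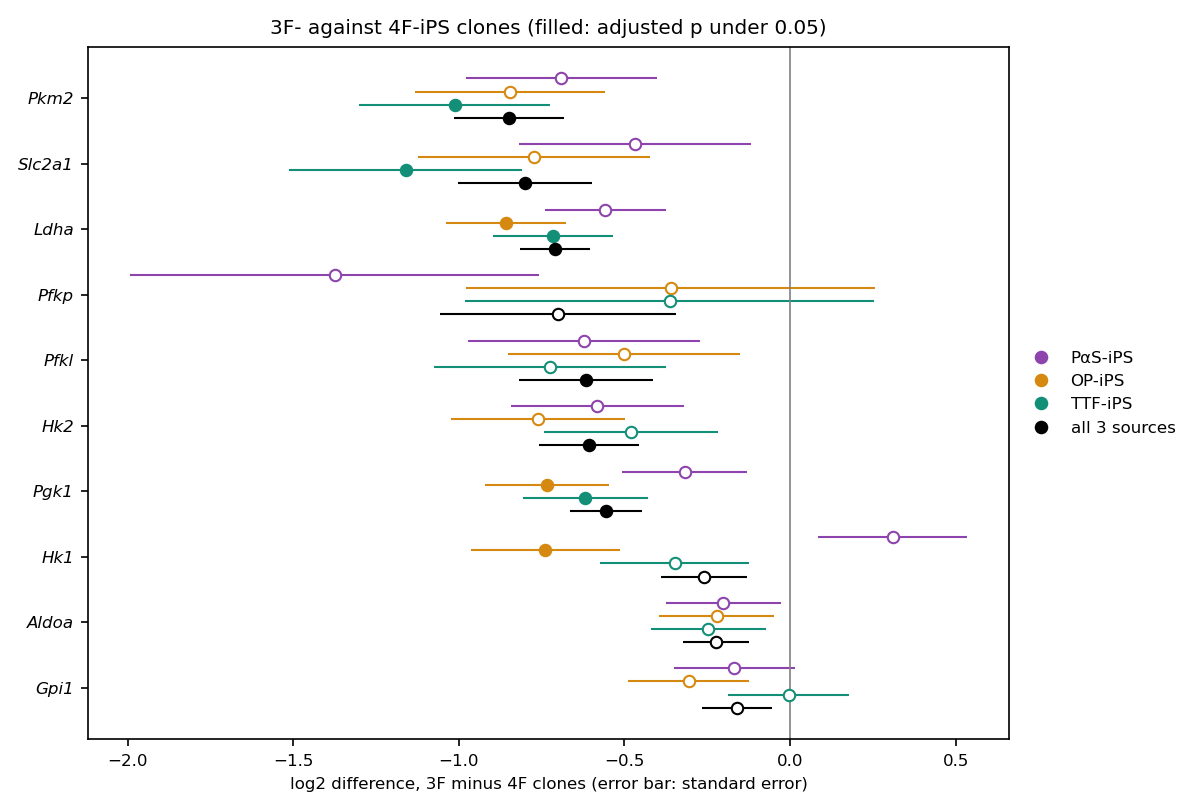
Difference of 3F minus 4F clones for each gene (x axis, log2 units, with 0 for no difference; error bars, SE of the limma fit; y axis, the genes) in PαS-, OP- and TTF-derived clones and over the 3 sources. Filled symbols had adjusted p under 0.05. Over the 3 sources the 10 differences lie between -0.85 and -0.16, and 6 are filled.

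The promoters of the genes that fell were read from RefSeq to show which short sequence words known for c-Myc and HIF-1 they hold, since several of these genes moved together. The words searched on both strands were CACGTG, the E-box known for Myc-Max, and ACGTG, the core known for HIF-1, which is part of CACGTG. In the 250 bases before the start, ACGTG was found for 6 of the 10 genes, in 7 of 15 windows (46.7%), against 16.6% of the 32851 RefSeq mouse windows of the same length. Of these 7 windows 2 belong to Aldoa, overlap and hold the same site. By gene, the word was found for 5 of the 6 genes that fell, all but Pfkl, and for 1 of the 4 not called, Aldoa. For Pkm2 it was in the window of the second RefSeq start and not in that of the first. A gene with several starts has more windows that may hold the word. CACGTG was found in 1 of the 15 windows, that of Ldha, against 6.02% of all windows. The word GCGTG, another form of the HIF-1 core, was in 5 of 15 windows against 28.2% of all, and was found for 3 of the 6 genes that fell, Pfkl among them, and for 2 of the 4 not called. These matches describe the letters only, and binding was not measured in these samples. The following windows, on GRCm38.p6 and not on the build of the array's probes, are those of 4 of the 5 genes that fell and hold the word, chosen to show it, written 5′ to 3′ in the direction of the gene and ending at the base before the start, with ACGTG in capitals on either strand (CACGT is ACGTG on the other strand):
Ldha, chr7:46845554-46845803, plus strand: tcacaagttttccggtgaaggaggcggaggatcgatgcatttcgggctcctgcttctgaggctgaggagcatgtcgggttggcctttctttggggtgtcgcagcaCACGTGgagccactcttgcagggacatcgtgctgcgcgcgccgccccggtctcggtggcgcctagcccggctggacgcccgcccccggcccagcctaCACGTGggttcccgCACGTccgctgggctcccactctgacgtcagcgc
Pgk1, chrX:106186850-106187099, plus strand: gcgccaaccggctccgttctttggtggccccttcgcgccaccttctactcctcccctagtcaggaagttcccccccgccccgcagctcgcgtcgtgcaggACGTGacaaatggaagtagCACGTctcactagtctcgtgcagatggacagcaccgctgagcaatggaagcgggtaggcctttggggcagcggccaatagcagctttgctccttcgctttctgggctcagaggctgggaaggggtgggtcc
Slc2a1, chr4:119108495-119108744, plus strand: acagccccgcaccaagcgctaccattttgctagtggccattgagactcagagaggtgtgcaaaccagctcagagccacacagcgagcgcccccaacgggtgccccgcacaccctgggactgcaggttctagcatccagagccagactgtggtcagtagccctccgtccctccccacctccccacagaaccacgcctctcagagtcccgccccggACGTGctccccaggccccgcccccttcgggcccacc
Hk2, chr6:82774455-82774704, minus strand: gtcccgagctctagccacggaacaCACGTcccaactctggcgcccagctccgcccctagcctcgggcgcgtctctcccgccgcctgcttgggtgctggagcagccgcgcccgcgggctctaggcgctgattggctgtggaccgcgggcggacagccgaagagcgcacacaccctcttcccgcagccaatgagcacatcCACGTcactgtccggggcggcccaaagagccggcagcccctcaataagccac
The words begin 145, 48 and 34 bases before the start in Ldha, 150 and 131 bases before it in Pgk1, 36 bases before it in Slc2a1, and 226 and 52 bases before it in Hk2. A second RefSeq start of Ldha had no ACGTG in its window.

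Within the single sources, the factor comparison rested on 5 against 5 clones. In PαS clones none of the 10 genes passed the test (4 at an unadjusted p under 0.05), where 0.0145% of all probes passed. The median difference of the genes was -0.51, with 9 of 10 below 0, and the limma adjusted p was 0.151 for Ldha (difference -0.56), 0.221 for Pkm2 (-0.69) and 0.254 for both Hk2 (-0.58) and Pfkp (-1.37). The exception was Hk1, with a difference of 0.31 (adjusted p = 0.493). The 4F-PαS clones split on the arrays, since clones #1 and #4, which shared a slide, had the highest levels of Hk2 (5.52 and 5.39), Pfkl (5.23 and 5.12), Pkm2 (6.56 and 6.84) and Ldha (7.34 and 7.51), while clones #3 and #5 had Pkm2 levels of 5.13 and 5.35, within the range of the 3F clones from 5.11 to 5.56. The part of the slide in this split was not tested. In PαS clones 1.20% of all probes had every 3F clone below every 4F clone, and none of the 10 genes did.

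In OP clones 3 genes were lower in 3F than in 4F clones, Ldha, Pgk1 and Hk1, where 8.04% of all probes passed the test and 3.27% were lower. Ldha had a difference of -0.86 (SE 0.182, 1.81-fold lower, limma adjusted p = 0.00597), with the highest 3F-OP clone at 6.45 and the lowest 4F-OP clone at 6.66. The Pgk1 level was 7.56, 7.30, 7.24, 7.63 and 7.63 in 4F-OP clones and 6.96, 6.80, 6.55, 6.47 and 6.90 in 3F-OP clones, which did not overlap, with a difference of -0.73 (1.66-fold lower, adjusted p = 0.0181). Non-overlap of this kind, all 3F below all 4F clones, was seen for 2.75% of all probes in OP clones. Hk1, the housekeeping hexokinase, was at 5.44, 4.33, 4.94, 3.94 and 4.71 in 4F-OP clones and at 4.31, 3.55, 4.20, 4.05 and 3.56 in 3F-OP clones, with a difference of -0.74 (1.67-fold lower, adjusted p = 0.0408). The Hk1 groups overlapped through 4F-OP-iPS #4, and the highest levels were those of clones #1 and #3, which lacked Sox2 and Nanog signal. Without these clones no gene passed in OP clones, with adjusted p = 0.0906 for Ldha (difference -0.75), 0.0933 for Pgk1 (-0.78) and 0.412 for Hk1 (-0.39). With the slide as a random block only Ldha passed, and Pgk1 had adjusted p = 0.0584.

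The OP calls also moved with single clones. Ldha alone remained without 4F-OP-iPS #1 or without 3F-OP-iPS #4, and Ldha and Pgk1 without any 1 of 4F-OP-iPS #3, 4F-OP-iPS #5, 3F-OP-iPS #2 or 3F-OP-iPS #5. Without 4F-OP-iPS #2 the count was 6, and without 3F-OP-iPS #1 it was 5, with Pkm2 and Slc2a1 added each time. The Slc2a1 level was 4.47 in 4F-OP-iPS #2 and 6.51 in 3F-OP-iPS #1, the lowest and the highest of their groups.

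In TTF clones 4 genes were lower in 3F than in 4F clones, Slc2a1, Pgk1, Pkm2 and Ldha, where 10.04% of all probes passed and 4.21% were lower. The Slc2a1 level was 6.80, 6.65, 6.50, 6.59 and 5.53 in 4F-TTF clones and 5.79, 5.17, 5.003, 5.11 and 5.19 in 3F-TTF clones, a difference of -1.16 (2.24-fold lower, limma adjusted p = 0.0353). The overlap came from 4F-TTF-iPS #5 and 3F-TTF-iPS #1. Pkm2 was at 5.89, 5.94, 6.06, 6.05 and 5.65 in 4F-TTF clones and at 5.29, 4.86, 5.02, 4.87 and 4.49 in 3F-TTF clones, a difference of -1.01 (2.02-fold lower, adjusted p = 0.0255), and Pgk1 had a difference of -0.62 (1.53-fold lower, adjusted p = 0.0364). Ldha had a difference of -0.72 (1.64-fold lower, adjusted p = 0.0136). Pkm2, Ldha and Hk2 did not overlap between the groups, which was so for 8.73% of all probes, although Hk2 itself did not pass the test (difference -0.48, adjusted p = 0.248).

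The TTF clones are given here with their slides, since 3F-TTF and 4F-TTF clones shared no slide. Clones #1 to #4 of 4F-TTF-iPS lay on 1 slide and clones #2 to #5 of 3F-TTF-iPS on another, while 4F-TTF-iPS #5 shared a slide with 3F-PαS clones and 3F-TTF-iPS #1 with 3F-OP clones. Slc2a1 in 4F-TTF-iPS #5 was 5.53, beside 5.57, 5.68 and 5.86 in the 3F-PαS clones of its slide. With the slide as a random block none of the 10 genes passed in TTF clones (adjusted p = 0.415 for Ldha, 0.387 for Pkm2, 0.549 for Pgk1 and 0.603 for Slc2a1), and with the slide as a fixed block the differences were 0.15 (SE 0.46) for Ldha, 0.32 (SE 0.41) for Pgk1, 0.81 (SE 0.97) for Slc2a1 and -0.08 (SE 0.55) for Pkm2 (adjusted p = 1 for each). No gene passed without 3F-TTF-iPS #5, whose Ldha level of 5.51 was the lowest of all clones, and Ldha alone passed without the clone that lacked Sox2 and Nanog signal, 4F-TTF-iPS #1. Ldha alone also passed without any 1 of 4F-TTF-iPS #2, 4F-TTF-iPS #4, 3F-TTF-iPS #2 or 3F-TTF-iPS #4, and Ldha and Pkm2 passed without 4F-TTF-iPS #3 or 3F-TTF-iPS #3.

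Whether the factor difference itself varied between the 3 sources was tested with the interaction of factor and source. None of the 10 genes passed this test (1 at an unadjusted p under 0.05), where 0.554% of all probes passed. The gene with the lowest p was Hk1, with differences of 0.31 in PαS, -0.74 in OP and -0.35 in TTF clones (limma adjusted p = 0.153). Hk1 passed without 4F-OP-iPS #4.

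The sources of the clones were compared over both factor sets. Between PαS and OP clones none of the 10 genes passed (5 at an unadjusted p under 0.05), where 3.76% of all probes did. Between PαS and TTF clones none passed (4 at an unadjusted p under 0.05) of 1.25% over all probes, and between OP and TTF clones none (1 at an unadjusted p under 0.05) of 0.0290%. The largest of these differences was that of Hk2, 0.65 higher in PαS than in TTF clones (limma adjusted p = 0.0757), and next to the threshold stood Aldoa, 0.39 higher in PαS than in OP clones (adjusted p = 0.0674), and Hk1, with a difference of -0.48 of PαS from OP clones (adjusted p = 0.0827). Aldoa passed between PαS and OP clones with the slide as a random block (0.41, adjusted p = 0.0439), without 4F-PαS-iPS #3 and without either ES array, both Aldoa and Hk1 passed without 4F-OP-iPS #4, and Hk1 alone without 4F-OP-iPS #2. Hk2 passed between PαS and TTF clones without 4F-PαS-iPS #3 or without 4F-PαS-iPS #5. When the 6 clone groups were ordered by their means, neighbouring groups overlapped for every gene except at the step from 4F-TTF to 3F-PαS clones in Pkm2 and Ldha. For Slc2a1, Pfkl, Pgk1, Pkm2 and Ldha the means of all 3 4F groups stood above those of all 3 3F groups. For Pfkl this rested on 3.64 in 4F-OP against 3.62 in 3F-PαS clones. The share of all probes with such a step or such an order was not computed.

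Other genes of sugar metabolism were described by their counts in the comparison of 3F with 4F clones over the 3 sources, beside 9.91% lower and 11.2% higher among all probes. With quantile normalization the larger of these shares turned, with 53.0% of the called probes higher in the main setting and 45.2% with quantile normalization. Of 17 other glycolysis genes tested, 3 were lower and 1 higher, with a median of -0.03. Those lower were Tpi1, the triose phosphate isomerase (-0.71, limma adjusted p = 0.000373), Eno1, an enolase (-0.69, adjusted p = 0.0242), and Pgam1, a phosphoglycerate mutase (-0.47, adjusted p = 0.0024), all in the stretch of the pathway between aldolase and pyruvate kinase. The gene that was higher was Ldhc, the testis form of lactate dehydrogenase (limma adjusted p = 0.002). It was well above background in 15 of 15 3F and 13 of 15 4F clones, so that the size of its difference is not given. Gapdh has no probe under its own name on this array and was not analysed.

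Of 18 genes for the control of glycolysis and the exit of its products, 2 were lower and 1 higher, with a median of -0.02. The lactate exporter Slc16a3 was lower (-0.96, adjusted p = 0.000728) as was the pyruvate dehydrogenase kinase Pdk3 (-0.44, adjusted p = 0.011), and Pdk4 of the same family was higher (1.08, adjusted p = 0.0452). Of 7 gluconeogenesis genes, 2 were higher, Fbp1, which undoes the phosphofructokinase step (adjusted p = 0.00484, well above background in 15 of 15 3F and 12 of 15 4F clones), and Pck1, which makes phosphoenolpyruvate (adjusted p = 0.00044), and none was lower. Pck1 was well above background in 11 of 15 3F and 3 of 15 4F clones, so that the sizes of both differences are not given. By source, the Fbp1 difference was 0.28 in PαS clones and 2.25 in TTF clones (adjusted p = 0.0817), and in OP clones, where 2 of 5 4F arrays were well above background, Fbp1 was higher in 3F clones (adjusted p = 0.015). That of Ldhc was 0.58 in PαS and 3.25 in TTF clones, and in OP clones, where 3 of 5 4F arrays were well above background, Ldhc was higher in 3F clones (adjusted p = 0.0181). Pck1 did not pass in PαS clones, where 3 of 5 4F arrays were well above background, and in OP and TTF clones, where no 4F array was well above background, it was at least 4.05-fold and at least 1.85-fold higher in 3F clones. In the test of whether the factor difference varied between sources, none of these 3 genes passed (limma adjusted p = 0.142 for Pck1, 0.267 for Fbp1 and 0.298 for Ldhc). Nanog and Sox2 were well above background in 3 of 5 4F-OP clones too, and the median difference of the 10 ES cell markers was 1.91 in OP clones, 1.05 in TTF clones and -1.14 in PαS clones. Their part in these values was not tested. Of 8 pentose phosphate genes 1 was higher, H6pd, and 1 lower, Rpe.

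Of 22 HIF target genes outside glycolysis 8 were lower and 1 higher, with a median of -0.43. Ankrd37 (-2.03, adjusted p = 5.51e-05, with -0.04 in PαS clones and a difference that varied between sources, adjusted p = 0.0463), the histone demethylase Jmjd1a, now Kdm3a (-1.05), and the mitophagy gene Bnip3 (-0.75) were among those lower, and the collagen cross-linking enzyme Lox was higher (1.52). Lox is also 1 of the fibroblast markers, of which 4 of 16 were higher in 3F clones (Postn, Lox, Col5a1 and Loxl1), beside 11.2% of all probes, and none lower. The median difference of these markers was 0.89 over the 3 sources, 0.51 in PαS, 1.39 in OP and 0.66 in TTF clones, against 0.03 over all probes and the 3 sources, while the median of the marker sum was 7.29 in 3F and 7.39 in 4F clones, the other way round. Among the HIF pathway factors 1 of 9 was lower, Arnt (-0.34), and Hif1a itself had a difference of 0.17 (adjusted p = 0.354). By source, HIF targets passed as lower in 4 of 22 in OP clones, beside 3.27% of all probes, and in 5 of 22 in TTF clones, beside 4.21%. In OP clones 1 target was higher, the stress-induced pseudokinase Trib3 (1.72, adjusted p = 0.0304), beside 4.77% of all probes, and in PαS clones none passed in either direction. The list medians were -0.47 in OP, -0.72 in TTF and -0.01 in PαS clones. These lists were chosen with results of the same data known, and their members share arrays, slides and scaling with the 10 genes.

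**Figure D3:**
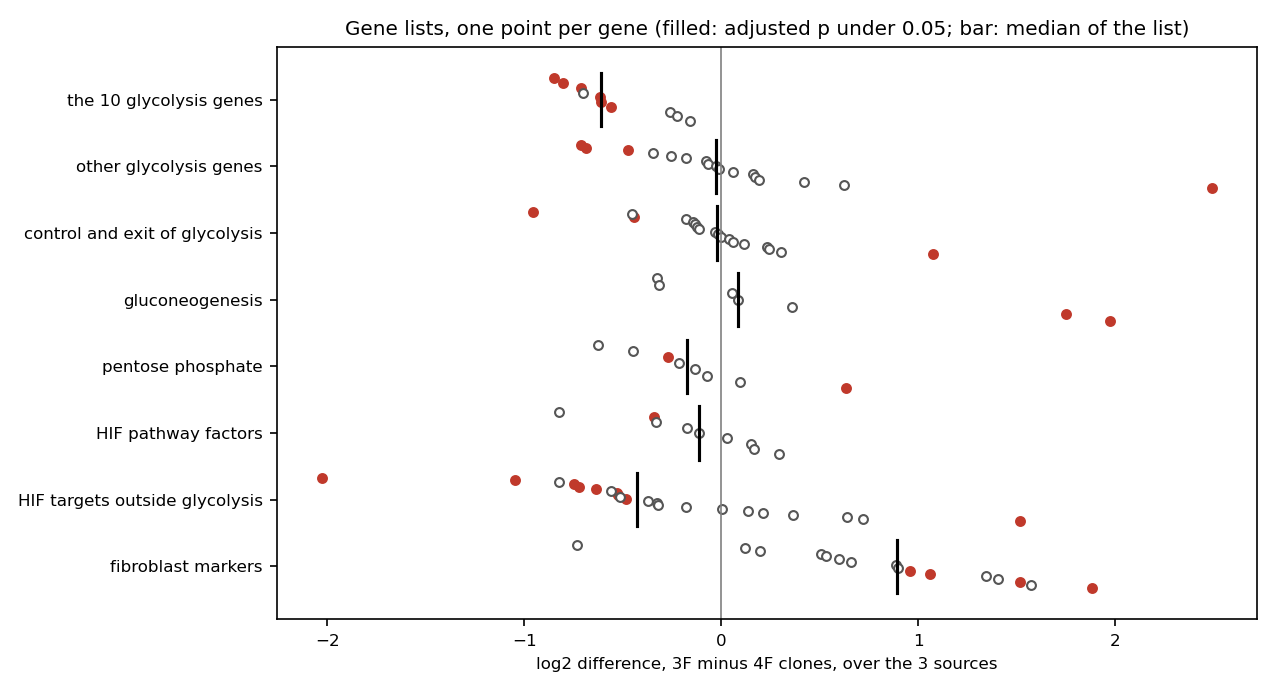
Difference of 3F minus 4F clones over the 3 sources (x axis, log2 units) for the genes of 8 lists (y axis), 1 point per gene, filled where adjusted p was under 0.05, with a bar at the median of the list. The median is -0.61 for the 10 glycolysis genes, -0.43 for HIF targets outside glycolysis and -0.03 for other glycolysis genes.

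The levels of the 10 genes were also set against each other over the 30 clones. Points of such a plot share the array, so that any array-wide shift moves both genes, and the 4F and 3F groups differ for several genes, so that the correlation is given within groups too. Of 45 pairs, 37 had an adjusted permutation p under 0.05, and the median Pearson r was 0.63, while the median r of each gene with 27508 probes of other genes lay between -0.06 and -0.02. The permutations exchanged all 30 clones across factor sets, sources and slides, so that these p-values do not account for differences between groups or slides, and no p was computed within them. All 36 pairs that left out Hk1 had an adjusted p under 0.05, with r from 0.37 to 0.91, and their median r was 0.70 over all clones, 0.65 within 4F clones, 0.62 within 3F clones and 0.42 after subtracting slide means, where the lowest pair was at -0.06. Within 3F clones Pfkp did not follow this pattern, since its r was negative with 5 of the 8 genes other than Hk1, Hk2 (-0.30), Pgk1 (-0.28), Pfkl (-0.26), Gpi1 (-0.12) and Aldoa (-0.07), and 0.06 with Ldha.

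Pgk1 with Ldha gave r = 0.910 and Spearman's rho = 0.853 (both permutation p = 1e-05, the smallest that 100000 permutations can give, adjusted p = 2.65e-05 and 3.21e-05). Without the 2 clones farthest from the Pgk1 median r was 0.874, and it was 0.813 in 4F clones, 0.858 in 3F clones and 0.702 with slide means subtracted. Pkm2 with Ldha gave r = 0.907 and rho = 0.886 (both permutation p = 1e-05, the smallest possible), 0.878 without the 2 farthest clones and 0.708 with slide means subtracted. Of the 9 pairs with Hk1, only that with Slc2a1 had an adjusted p under 0.05 (r = 0.521) over all clones, and the median r was 0.16. With slide means subtracted, Hk1 had r = 0.51 with Pkm2, 0.50 with Gpi1 and 0.49 with Slc2a1, and within 3F clones it had 0.76 with Slc2a1 and 0.54 with Pkm2.

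**Figure D4:**
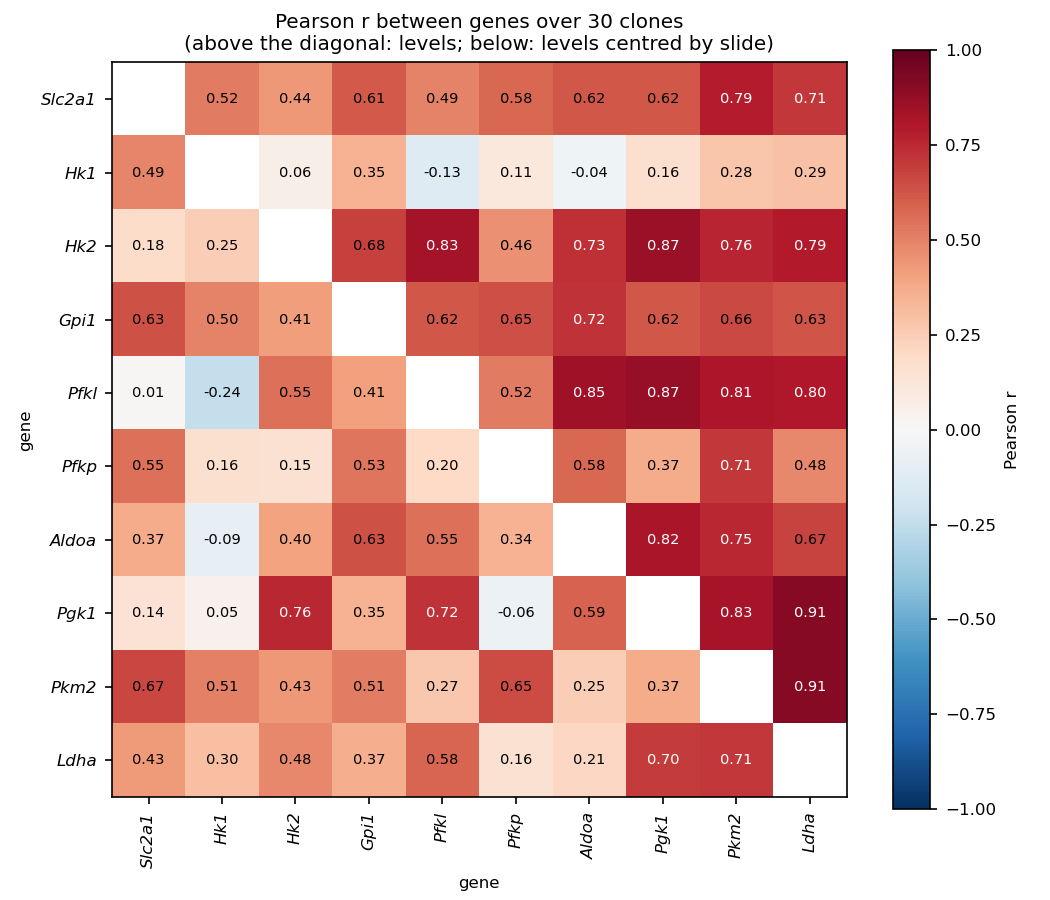
Pearson correlation between the levels of the 10 genes over the 30 clones (colour scale, r), with the levels as they are above the diagonal and with slide means subtracted below it. Above the diagonal the pairs without Hk1 run from 0.37 to 0.91, and Pgk1 with Ldha is at 0.91.

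The genes whose levels over the 30 clones were most like those of each of the 10 genes were looked up among 27508 probes of other genes. Pgam1 was among the nearest 3 of both Pfkl (r = 0.92) and Pgk1 (0.90), and Tpi1 of both Pgk1 (0.90) and Ldha (0.93). Nearest to Pgk1 was Bnip3 (0.92), and Jmjd1a was the second nearest to Hk2 (0.86), after Seh1l (0.94). For Ldha the nearest probes were those of predicted loci similar to Ldha itself (0.95), for Aldoa probes of GAPDH-like loci (0.84 to 0.85), and for Pkm2 probes without a gene name (0.94 to 0.99), and probes of such near copies may read the same transcripts. Slc2a1 was nearest to 2310046K01Rik, now the riboflavin transporter gene Slc52a3 (0.91), Hk1 to the adiponectin receptor Adipor1 (0.90), Gpi1 to Surf6 (0.77) and Pfkp to Prodh (0.92). With slide means subtracted, the r of the nearest 3 genes of each ran from 0.49 to 0.96, with 0.49 for Jmjd1a and 0.70 for Seh1l with Hk2, and 0.76 for Bnip3 and 0.63 for Tpi1 with Pgk1. These likenesses are a description and carry no test.

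Against the ES cells, 1 of the 10 genes, Hk1, was higher in the iPS clones, and none was lower. Over all probes, 52.6% passed in this comparison, 22.3% were higher and 30.3% lower in clones, and the session differed as well. The brightest Hk1 probe lies at chr10:61787906-61787965 on the minus strand of mm7. Hk1 was at 3.05 in EB-3 and 2.13 in RF8 cells, and ran from 3.46 through a median of 3.96 to 5.44 in the 30 clones. All 30 clones were above both ES arrays, and the difference of 1.45 (SE 0.260, 2.73-fold higher) had a limma adjusted p of 4.54e-05. The share of all probes with every clone above both ES arrays was not computed. Of the other 4 tested Hk1 probes, 3 had differences of 2.22, 1.80 and 1.53, all past the test. The last was dim, well above background on 1 of 2 ES arrays and in 23 of 30 clones, and passed too, with no size given. The level was the lower of both ES arrays in RF8 cells, whose fibroblast marker sum of 7.27 was within the range of the clones, and the higher in EB-3 cells, whose sum was 1.20.

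Of the 30 clones, 25 lay below both ES arrays for Hk2, 19 for Ldha and 18 each for Pkm2 and Pfkp, while 26 lay between them for Pfkl and 25 for Gpi1. Both ES arrays differed from each other by as much as 1.88 for Pfkl, 1.17 for Gpi1 and 1.09 for Pkm2 (EB-3 minus RF8, log2 units). The median absolute difference of all probes between EB-3 and RF8 cells was 0.69, and 34.7% of probes differed at least 2-fold. Hk2 had a difference of -0.63 of clones from ES cells (limma adjusted p = 0.0828), Pkm2 of -0.63 (adjusted p = 0.114), Ldha of -0.43 (adjusted p = 0.0874) and Gpi1 of 0.40 (adjusted p = 0.112). The median of the 10 genes was -0.04, against -0.16 over all probes. Each ES array decided which genes joined Hk1, since Aldoa and Gpi1 passed as higher in clones without EB-3 cells, Ldha and Pkm2 passed without RF8 cells, and Hk2 passed without 4F-PαS-iPS #1. With quantile normalization 3 genes passed, and Aldoa changed from a difference of 0.29 to -0.53 (adjusted p = 0.0108), so that no direction can be given for Aldoa.

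All counts of this comparison are to be read beside the 22.3% of all probes that were higher and the 30.3% that were lower in clones. Among other genes of the pathway the clones also stood above the ES arrays for Hkdc1, a hexokinase domain protein (8.35, limma adjusted p = 5.19e-10), and Pfkm, the muscle phosphofructokinase (1.06, adjusted p = 7.63e-05). Of the 17 other glycolysis genes 3 were higher and 2 lower, the latter being Eno1 (-1.30, adjusted p = 0.0133) and Pgam1 (-0.51, adjusted p = 0.0438). Of the 22 HIF targets 12 were higher and 2 lower, with a median of 1.30, and of 16 fibroblast markers 12 were higher with a median of 3.75.

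The source cells, 1 array for each kind taken as 1 group of 3, were below the iPS clones for 4 of the 10 genes, Slc2a1, Hk2, Gpi1 and Aldoa, and above them for none. Over all probes, 59.01% passed in this comparison with 35.01% lower and 24.01% higher in source cells. The Slc2a1 level was 2.83 in PαS cells, 3.85 in OP cells and 3.86 in TTF, and no clone was below 4.47. The difference of -2.28 (SE 0.339, 4.86-fold lower) had a limma adjusted p of 1.77e-06. Hk2, the hexokinase that is inducible in many tissues, was at 0.92 in PαS cells, 1.48 in OP cells and 2.61 in TTF, with no clone below 3.07. Its difference of -2.27 (SE 0.279, 4.83-fold lower) had an adjusted p of 8.18e-08. The share of all probes with every source array below every clone was not computed. On the slide that the source cells shared with EB-3 cells, all 3 lay below EB-3 cells, with mean differences of -2.73 for Slc2a1 and -2.60 for Hk2. All 3 also lay below this 1 EB-3 array for Pfkp (-1.77), Pfkl (-1.69), Pkm2 (-1.02), Gpi1 (-0.79), Aldoa (-0.52) and Pgk1 (-0.44). For Ldha 2 of 3 did (mean difference -0.38), and for Hk1 0 of 3 (0.98).

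Gpi1 had a difference of -0.60 from clones (1.52-fold lower, limma adjusted p = 0.00448), and its second probe, well above background on 3 of 3 source arrays and in 27 of 30 clones, had -1.41. Aldoa had a difference of -0.43 (adjusted p = 0.0298), which became 0.03 with quantile normalization (adjusted p = 0.880), so that this call rests on the scaling. The second Aldoa probe did not pass (-0.32, limma adjusted p = 0.108). Aldoa was also lost without PαS cells, and both Aldoa and Gpi1 without OP cells. The median over all probes itself moved from -0.17 to 0.04 with quantile normalization and to -0.31 with normexp background correction. The median of the 10 genes was -0.52.

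The enzymes of the lower part of the pathway were not lower in source cells than in clones by the same test. Ldha was at 6.79 in PαS cells, 7.35 in OP cells and 6.72 in TTF, a difference of 0.32 from clones (adjusted p = 0.122), Pkm2 at 6.06, 5.23 and 5.76, a difference of 0.16, and Pgk1 at 6.72, 7.23 and 6.98, a difference of -0.27. Hk1 had a difference of -0.01 (adjusted p = 0.960), and 1 of its 4 other tested probes was called as lower, the dim one, which was well above background on 3 of 3 source arrays and in 23 of 30 clones. Pfkl had a difference of -0.77 (adjusted p = 0.0522), which passed under several other settings, and Pfkp of -0.82 (adjusted p = 0.222), with -2.60 (adjusted p = 0.000728) and 0.42 on its other probes. The 3F clones are part of the clone group here. On the brightest probe Ldha in the source cells, from 6.72 to 7.35, lay above all 15 3F clones and within the range of the 4F clones. The second Ldha probe did not show this. There the source cells ran from 6.13 to 7.03, with the highest 3F clone at 6.41 and the lowest 4F clone at 6.27. The factor comparison and this one share the clones and are not independent.

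Of the 17 other glycolysis genes, 8 were lower and 2 higher in source cells, with a median of -1.27. The neuronal-type glucose transporter Slc2a3 had a difference of -8.46 (limma adjusted p = 9.09e-18), and Hkdc1 was lower too (adjusted p = 1.14e-14), with 1 of 3 source arrays well above background, so that the size of its difference is not given. Ldhc was not well above background on any source array and was at least 35.7-fold lower there. Hk3, a hexokinase of blood cells, was higher (adjusted p = 0.00563), with 2 of 3 source arrays and 3 of 30 clones well above background, so that the size of its difference is not given either, and the summed blood cell markers were 2.47 in PαS cells, 4.05 in OP cells and 9.12 in TTF, where 8 of 8 were well above background. PαS and OP cells were sorted as CD45- and Ter119-, a gate set to leave out blood cells, and no such gate is given for TTF. The part of blood cells in the Hk3 level was not tested. Of the 8 pentose phosphate genes 6 were higher in source cells, beside 24.01% of all probes, and none lower, with a median of 0.62, among them both glucose-6-phosphate dehydrogenase genes, G6pdx (1.97) and G6pd2, which was well above background on 3 of 3 source arrays and in 21 of 30 clones.

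**Figure D5:**
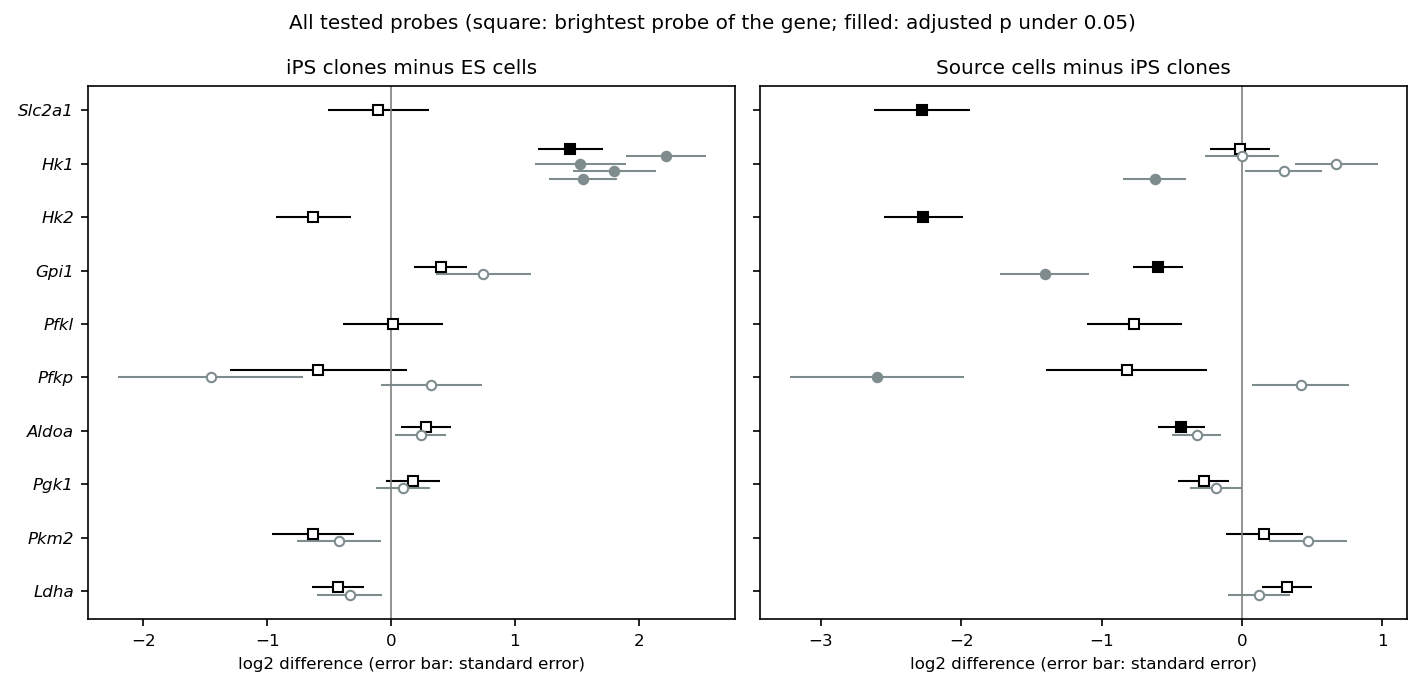
Difference of clones minus ES cells and of source cells minus clones (x axes, log2 units, error bars SE) for every tested probe of the 10 genes (y axis), squares for the brightest probe of a gene and filled where adjusted p was under 0.05. All 5 Hk1 probes are filled and positive in clones against ES cells, with 1.45 for the brightest, and Slc2a1 and Hk2 lie at -2.28 and -2.27 in source cells against clones.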

How the data were processed

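Total RNA was labelled with Cy3 and hybridised to 1-colour Agilent mouse arrays. Per the file headers, the authors made the intensity values with Agilent Feature Extraction, and the processed signal deposited for each spot is already corrected for background. The deposited value table, log2 values of 41266 probes made by the authors in GeneSpring GX with each probe centred on its median, was used as an alternative. Coordinates of probes in the files are on mm7, for which no genome or annotation was used here, so that exon or UTR positions are not given.

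Control spots and outlier spots were left out, spots of 1 probe were averaged, and levels were log2 of the processed signal minus the 75th percentile of the array. The number of arrays limits the precision. A probe was tested where at least 1 group had it well above background throughout, in 1 limma fit of 7 groups (27623 probes) and in a fit of 8 groups with the 3 source arrays as 1 group (28300 probes). A call is a Benjamini-Hochberg adjusted p under 0.05 over all probes tested. Pairs of genes were tested with 100000 two-sided permutations. R 4.3.3, limma 3.58.1, Python 3.11.15, numpy 2.4.6, pandas 2.3.3 and scipy 1.17.1 were used, and the fit was tested on simulated data.

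The members and lists were chosen with earlier results of these data known, and a gene with several probes was given by its brightest probe, by the mean of the clone and ES arrays. Named genes were all members, of each list at most 3 genes in each direction by size of difference among those called, and the 3 nearest genes of each member. Hif1a and Loxl1 were named after their values were seen. No p-value measures more than the spread between these clones, which may be technical. The highest correlation between 2 arrays was 0.9913, and no 2 arrays held the same values. Alternatives were normexp background correction, quantile normalization, the value table, filters on dim probes, the mean of all probes of a gene, the slide as a random or fixed block, the clone number as a block, a minimum of 2-fold and each array left out. Clone numbers did not pair samples, since 16 of 75 same-numbered pairs of clones correlated above 0.1 in their deviations from group means, with a median of -0.00038.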

Additional observations from a re-analysis of the deposited data

Results flagged for a closer look

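Of 60 groups of 5 clones, 10 genes in 6 groups, 7 held a clone that lay far from the other 4, where chance gives about 1 in 20. The 10 genes were read on the same arrays, so that these groups are not independent. The same clone is counted for several genes, and 7 cannot be set against that rate as separate events. In 4F-TTF-iPS #5 the levels of Slc2a1 (5.53, next 6.50), Pgk1 (7.10, next 7.53) and Aldoa (8.35, next 8.93) were the lowest of their group by a wide gap, and this clone lay on a slide with 3F-PαS clones and apart from the other 4F-TTF clones. In 3F-TTF-iPS #1, the only clone of its group on a slide with 3F-OP clones, Slc2a1 was the highest (5.79, next 5.19). The part of the slide in these levels was not tested. In 4F-OP-iPS #2, Pfkp (-2.03, next 2.54) and Pkm2 (4.81, next 6.12) were the lowest of their group, and its ES cell marker sum was 4.09. In 3F-PαS-iPS #2, Hk1 was the lowest at 3.78, next to 3.98. The factor difference of the HIF target Ankrd37 varied between the sources (limma adjusted p = 0.0463), with -3.12 in OP, -2.92 in TTF and -0.04 in PαS clones.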

How the results depend on the processing

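Over the 3 sources 6 genes were called lower in 3F clones, 3 with the slide as a random block and 0 with a 2-fold minimum. In OP clones 3 were called, 1 with the random block, 0 with a 2-fold minimum and 0 without the clones lacking Sox2 and Nanog signal, a setting chosen after seeing the data. In TTF clones 4 were called, 0 with the slide as a random or fixed block, 2 with a 2-fold minimum and 1 without those clones. With the fixed block the TTF difference was reversed for Slc2a1 (0.81), Pgk1 (0.32) and Ldha (0.15). Between PαS and OP clones 1 was called with the random block. Clones against ES cells gave 1 call, 3 with quantile normalization and 2 with the mean of all probes of a gene, and source cells against clones gave 4, and 2 with a 2-fold minimum. With quantile normalization Aldoa was reversed to -0.53 in clones against ES cells and to 0.0269 in source cells against clones. The cause of these changes was not tested.

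With each array left out in turn, the counts ran from 5 to 8 over the 3 sources, 0 to 0 in PαS, 1 to 6 in OP and 0 to 4 in TTF clones, 0 to 2 between PαS and OP, 0 to 1 between PαS and TTF and 0 to 0 between OP and TTF clones, 1 to 3 for clones against ES cells, 3 to 6 for source cells against clones and 0 to 1 for the interaction. Beyond the arrays named above, Pkm2 or Hk2 joined the OP calls without 4F-PαS-iPS #1, #3, #4 or #5 or an ES array, and Pfkl joined the calls for source cells without any 1 of several clones or an ES array.

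With the clone number as a replicate block the counts were the same in every comparison, 6 over the 3 sources, 3 in OP and 4 in TTF clones, and the block changed no call. Over single genes, 871 of the values under other settings kept their direction and side of the threshold, 36 lost the call, 8 gained it and 5 changed sign. Most of these values were not called in the main setting either and had no call to lose. The 36 losses are therefore to be read against the called values only. Over the 3 sources the Ldha difference ran from -0.86 to -0.58 and its adjusted p was at most 0.0138 over 42 settings. Of these, 32 left out 1 array each, and none had the slide as a fixed block. That block could be fitted for the factor comparison in TTF clones alone, where the Ldha difference was 0.15. The share of called probes that were higher moved with quantile normalization from 53.0% to 45.2% over the 3 sources, from 59.3% to 45.1% in OP clones, from 58.0% to 45.9% in TTF clones, from 45.1% to 64.0% between PαS and TTF clones (63.5% with normexp) and from 40.7% to 51.4% in source cells against clones. Signal over background did not limit the brightest probe of each gene, which was well above background on all 35 arrays.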
